A study of Mus musculus with 6 samples.

Results

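The 9 genes described here set atrial apart from ventricular muscle, and their levels were followed in heart RNA of WT and Mc4r KO mice. They are Myl7, Myl4, Sln, Bmp10, Dhrs9, Tbx5 and Nr2f2 on the atrial side and Irx4 and Hey2 on the ventricular side. Members were taken by gene name from the deposited expression table, and all 9 had 1 row each among its 54532 rows. The study asked how loss of Mc4r, the melanocortin 4 receptor, changes gene expression in the heart before disease is visible. Polyadenylated RNA from 3 WT mice and 3 Mc4r KO mice was sequenced from both fragment ends, and each mouse gave 1 library. All animals were 12 weeks of age, male, on the C57B/6/N background and fed standard chow without further treatment. Mc4r KO mice were homozygous knockouts of a purchased line, in which the deletion is present in every cell, and the WT mice were their littermates from crosses of heterozygotes. The labels name the tissue as heart in one place and muscle in another, and the paper's discussion gives left ventricular tissue for the sequencing. How the tissue was cut for each mouse is not given in the sources used here.

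Atrial and ventricular cardiomyocytes build the same kind of sarcomere from different isoforms. Atrial cells use the light chains encoded by Myl7 and Myl4, ventricular cells those encoded by Myl2 and Myl3, and adult ventricular myocardium normally carries little of the atrial forms. Chamber identity is held by transcription factors, with Tbx5 and Nr2f2 on the atrial side and Irx4 and Hey2 on the ventricular side. Bmp10 is a secreted growth factor that in the adult mouse heart is made mainly in the right atrium, and Dhrs9 encodes a short-chain dehydrogenase that acts on retinoids and steroids.

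Sln encodes sarcolipin, a very small membrane protein that inhibits the calcium pump of the sarcoplasmic reticulum and is an atrial protein in the mouse heart. Its coding sequence is shown because it occupies 96 of the 1318 bases of the transcript. It lies at chr9:53853473-53853568 on the plus strand (GRCm38), and capitals mark the start and the stop codon.
Sln coding sequence: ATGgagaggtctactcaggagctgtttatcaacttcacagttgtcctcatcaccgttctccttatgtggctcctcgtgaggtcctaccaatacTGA

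The promoters of 2 members with the same order of libraries (Myl7 and Myl4), of Bmp10, which differed from them, and of the ventricular regulator Irx4 are shown as the 150 bases before the start of transcription. RefSeq (GRCm38.p6) held promoter entries for 7 of the 9 members, and none was found for Sln and Tbx5. Both strands were searched for the TATA box TATAAA, the T-box motif AGGTGT and the GATA site AGATAA, none of which contains another. Over 32851 promoters of the same length, 7.57% held the first, 6.86% the second and 5.65% the third. Capitals mark a match. Windows for Myl7, Myl4 and Irx4 held none of these letters, and the Bmp10 window held AGATAA on the same strand, 33 bases before the start. Other forms of these motifs were not searched, such as TGATAA, which the Myl7 window holds. They are Myl7 at chr11:5898783-5898932 on the minus strand, Myl4 at chr11:104550513-104550662, Bmp10 at chr6:87428844-87428993 and Irx4 at chr13:73260347-73260496, the last 3 on the plus strand.
Myl7 promoter: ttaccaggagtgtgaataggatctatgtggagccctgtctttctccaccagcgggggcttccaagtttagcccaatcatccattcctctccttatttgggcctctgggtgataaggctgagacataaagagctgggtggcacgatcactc
Myl4 promoter: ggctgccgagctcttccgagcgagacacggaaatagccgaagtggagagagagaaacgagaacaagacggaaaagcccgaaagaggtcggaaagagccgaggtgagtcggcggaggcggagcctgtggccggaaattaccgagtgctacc
Bmp10 promoter: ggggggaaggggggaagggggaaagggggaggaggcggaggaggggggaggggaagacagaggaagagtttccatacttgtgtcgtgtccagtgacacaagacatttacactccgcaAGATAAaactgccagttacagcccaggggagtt
Irx4 promoter: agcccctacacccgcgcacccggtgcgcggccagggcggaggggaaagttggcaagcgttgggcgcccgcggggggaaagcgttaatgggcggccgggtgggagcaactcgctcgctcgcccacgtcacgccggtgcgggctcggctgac

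Levels are given as FPKM as the authors deposited it, that is, fragments counted on a gene after division by gene length and by a value for each library. That value did not follow the reads on genes alone, and median-of-ratios factors of the deposited FPKM were 1 in each library. Since FPKM times gene length came in whole steps, the number of reads behind each value could be recovered and is given beside it where it matters. The libraries held 14691076 to 16047003 reads on genes, and 3 reads on a gene of 1 kilobase corresponded to an FPKM of 0.176 to 0.213. Mc4r itself had 2 reads in WT replicate 3 and 0 in the other 5 libraries, below a floor of 3 reads, so the targeted gene gave no check of the labels. WT replicate 3 stood apart from the other 5 libraries in several of the genes below. Group differences of the genes that were high in it are therefore given with and without it.

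The 3 atrial genes of the contractile apparatus were present at high level in 1 library, far lower in 2 others and close to 0 in the remaining 3, and these classes cut across the genotypes. Myl7, the atrial regulatory light chain (chr11:5896637-5898782, minus strand), had an FPKM of 0.240, 28.1 and 307 in WT replicates 1, 2 and 3, against 38.8, 0.558 and 0.528 in Mc4r KO replicates 1, 2 and 3. These levels came from 2, 238 and 3085 reads in WT mice, against 355, 5 and 5 in Mc4r KO mice. The 2 reads of WT replicate 1 put it at 0.0783% of WT replicate 3 (95% exact conditional interval 0.00948% to 0.283%), so the widest gap lay between mice of 1 genotype. The groups overlapped, since Mc4r KO replicate 1 exceeded WT replicates 1 and 2.

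Myl4, the atrial essential light chain (chr11:104550663-104595753, plus strand), followed the same order. Its FPKM was 0.184, 6.53 and 57.2 in WT mice, against 7.68, 0.326 and 0.296 in Mc4r KO mice, from 12, 435, 4517, 553, 23 and 22 reads. WT replicate 3 was again the highest, and WT replicate 1 the lowest by a factor of 312. The deposited length of Myl4 is 4637 bases, the union of the exons of 8 transcripts, while its longest coding transcript has 943 bases, so its FPKM is lower than it would be on that transcript.

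Sln (chr9:53850164-53854560, plus strand) had 0, 158 and 1544 reads in WT mice, against 184, 0 and 0 in Mc4r KO mice. The corresponding FPKM was 0, 8.35 and 68.8 in WT mice and 8.99, 0 and 0 in Mc4r KO mice. Sln was therefore detected in the same 3 libraries in which Myl7 and Myl4 were highest, and in none of the other 3. In bulk tissue, fewer cells of a type and less RNA per cell cannot be told apart, and this holds for each of these genes.

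**Figure D1:**
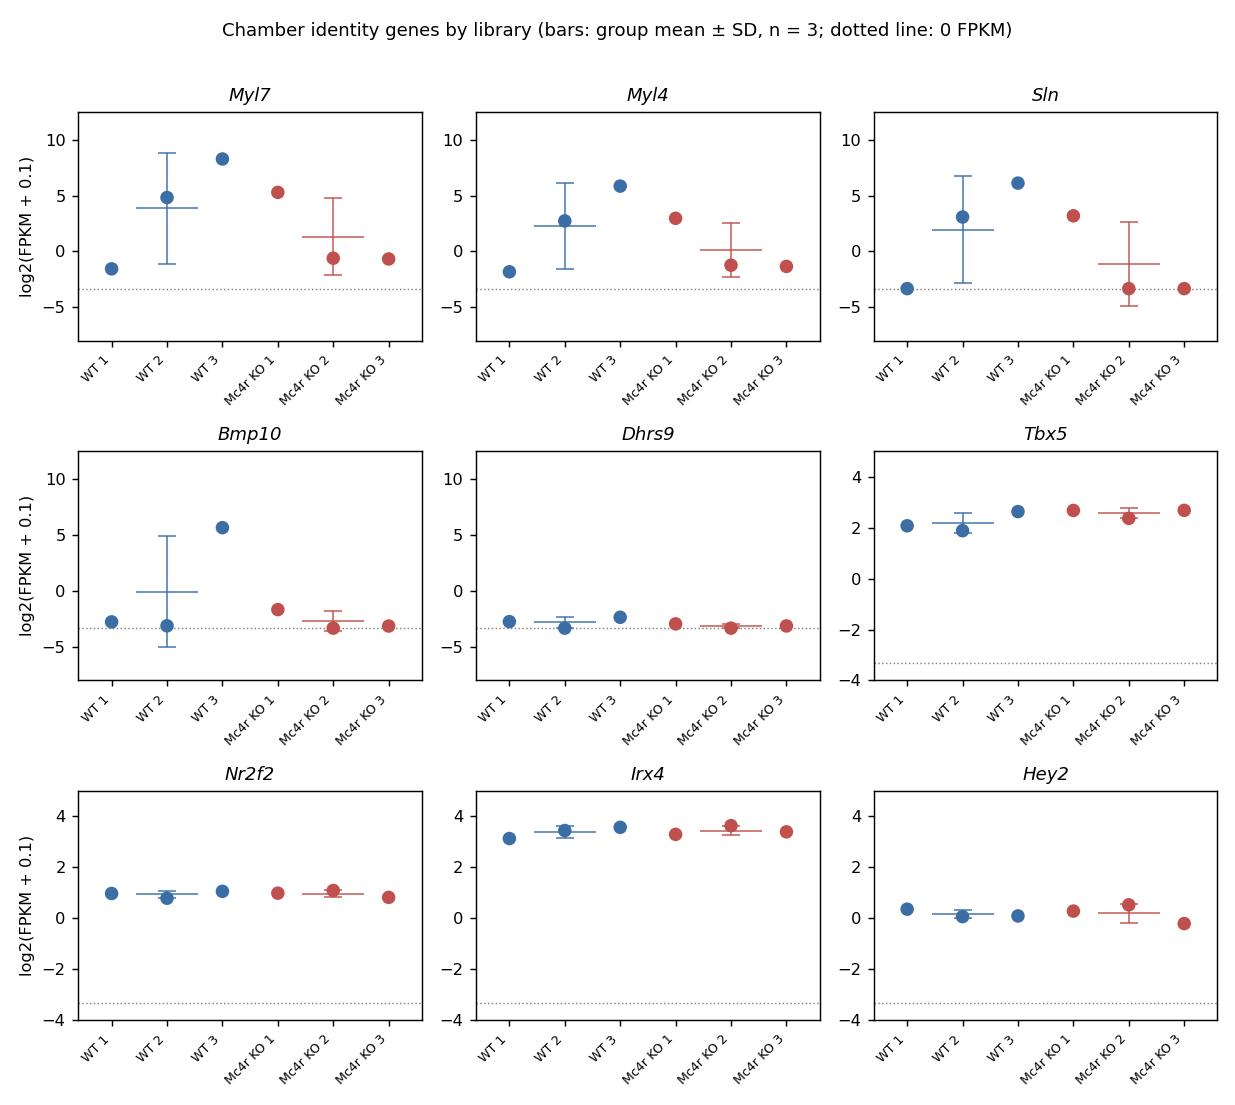
The 9 genes by library, as log2(FPKM + 0.1) on the vertical axis, with WT libraries in blue and Mc4r KO libraries in red. Horizontal bars with whiskers are the group mean ± SD (n = 3) and the dotted line is an FPKM of 0. Myl7, Myl4 and Sln are high in WT replicate 3, lower in WT replicate 2 and Mc4r KO replicate 1 and near 0 in the others, Bmp10 is high in WT replicate 3 alone, and the lower 4 panels (Tbx5 to Hey2), drawn on a narrower axis, vary by less than 2-fold.

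Set against WT replicate 3, the 3 genes had similar proportions. Myl7 in WT replicate 2 was at 9.15% of its level in WT replicate 3 (95% exact conditional interval 7.98% to 10.4%), Myl4 at 11.4% (10.3% to 12.6%) and Sln at 12.1% (10.2% to 14.3%). In Mc4r KO replicate 1, Myl7 was at 12.6% (11.3% to 14.1%), Myl4 at 13.4% (12.3% to 14.7%) and Sln at 13.1% (11.2% to 15.2%). These intervals cover counting error only, since PCR copies are not independent molecules. Within a library, Sln was at 0.297, 0.224 and 0.232 of the FPKM of Myl7 in WT replicate 2, WT replicate 3 and Mc4r KO replicate 1. Myl4 was at 0.233, 0.186 and 0.198 of the FPKM of Myl7 in the same libraries. The ratios of Sln and Myl4 to Myl7 thus differed by less than 1.5-fold among these 3 libraries. In WT replicate 1 and Mc4r KO replicates 2 and 3, Sln had 0 reads and Myl4 was at 0.763, 0.585 and 0.560 of Myl7, on 2 to 5 reads of Myl7. In those libraries Myl7 stood at 0.0783% to 0.182% and Myl4 at 0.321% to 0.571% of WT replicate 3.

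Bmp10 (chr6:87428994-87437677, plus strand) parted from the contractile genes. It had 3, 1 and 3857 reads in WT mice, against 15, 0 and 1 in Mc4r KO mice, with an FPKM of 0.0474, 0.0155 and 50.4 in WT mice and 0.215, 0 and 0.0139 in Mc4r KO mice. WT replicate 3 alone held Bmp10 at high level. Mc4r KO replicate 1 was at 0.427% of it (0.239% to 0.705%), and WT replicate 2 at 0.0307% (0.000778% to 0.171%), far under the proportions of Myl7, Myl4 and Sln in the same 2 libraries. As a ratio to Myl7, Bmp10 was 0.164 in WT replicate 3, 0.00555 in Mc4r KO replicate 1 and 0.000552 in WT replicate 2. WT replicate 2 and Mc4r KO replicate 1 therefore resembled WT replicate 3 in the ratios among the contractile genes, at far lower levels, and not in the ratio of Bmp10 to Myl7.

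**Figure D2:**
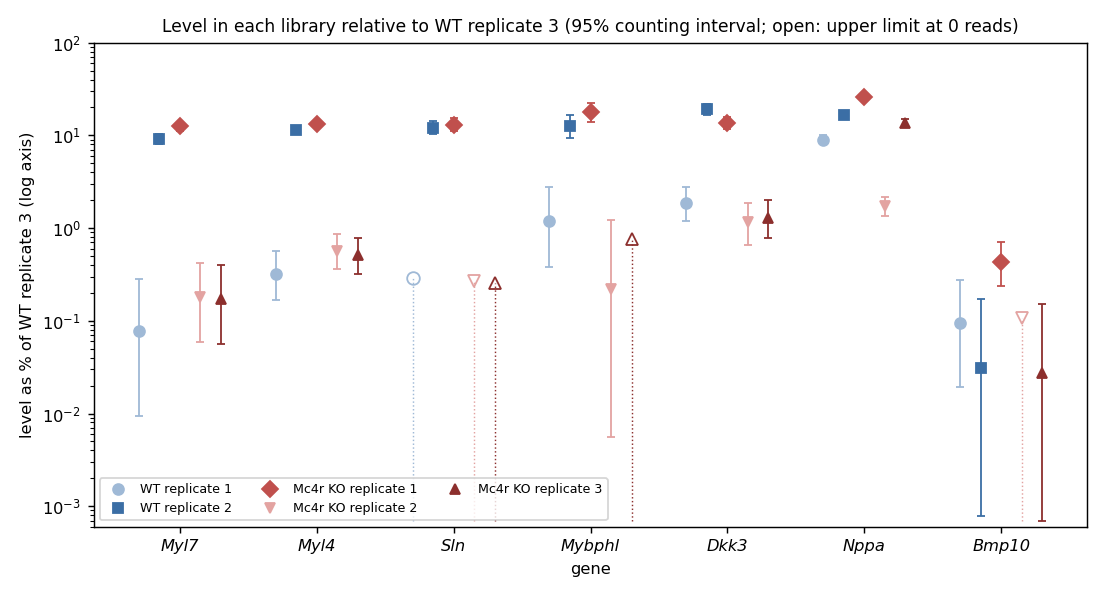
Level of 7 atrial genes in each of the 5 other libraries, as a percentage of the level in WT replicate 3 on a log axis, with 95% counting intervals. Open symbols are upper limits where a library had 0 reads. For Myl7, Myl4 and Sln, WT replicate 2 and Mc4r KO replicate 1 sit between 9.15% and 13.4% and the other libraries under 1%, whereas all 5 libraries are under 1% for Bmp10.

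Dhrs9 (chr2:69380445-69404533, plus strand) was close to 0 throughout. Its 3, 0 and 7 reads in WT mice and 2, 0 and 1 reads in Mc4r KO mice gave an FPKM of at most 0.0960, again in WT replicate 3. It did not reach the mean FPKM of 0.1 required for testing, and a difference was not detectable at this depth.

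The atrial transcription factors did not follow the contractile genes. Tbx5, a T-box factor of the atria that is also present in the ventricular muscle and conduction system of mice (chr5:119832668-119885219, plus strand), had an FPKM of 4.10, 3.57 and 6.08 in WT mice and 6.27, 5.04 and 6.29 in Mc4r KO mice. WT replicates 1 and 2 were lower than all 3 Mc4r KO libraries, and WT replicate 3 lay within their range. The highest and lowest libraries of Tbx5 differed by a factor of 1.76.

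Nr2f2, an orphan nuclear receptor of atrial muscle and of veins (chr7:70351944-70366735, minus strand), had an FPKM of 1.85, 1.61 and 1.97 in WT mice and 1.87, 2.01 and 1.65 in Mc4r KO mice. These 6 libraries spanned a factor of 1.25, the narrowest range of the 9 genes, and both groups covered the same levels. Of its exonic sequence, 7.46% is overlapped by a gene on the opposite strand, and the use of strand in counting is not given in the sources used here. Ephb4, Nrp2, Vwf, Prox1, Lyve1, Flt4, Pdpn and Ccl21a, taken as genes of venous and lymphatic endothelium, summed to an FPKM of 51.6 to 66.9 across the libraries, and the share of Nr2f2 that came from vessels was not tested.

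Irx4, a homeobox factor of ventricular muscle (chr13:73260479-73269608, plus strand), was at similar level in all libraries, including those with high atrial transcripts. Its FPKM was 8.60, 10.7 and 11.7 in WT mice and 9.64, 12.2 and 10.3 in Mc4r KO mice. WT replicate 3, the highest in Myl7, was second highest in Irx4. Hey2, a transcriptional repressor of the compact ventricular wall (chr10:30832359-30842801, minus strand), had an FPKM of 1.17, 0.940 and 0.959 in WT mice and 1.11, 1.33 and 0.760 in Mc4r KO mice. Both Hey2 extremes were Mc4r KO libraries.

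By mean FPKM over the 6 libraries, the coefficient of variation was 193% for Myl7, 186% for Myl4, 188% for Sln and 243% for Bmp10. It was 22.6% for Tbx5, 19.3% for Hey2, 12.7% for Irx4 and 8.88% for Nr2f2. Without WT replicate 3 it was 135%, 125%, 137% and 153% for Myl7, Myl4, Sln and Bmp10 and 24.5%, 20.7%, 13.1% and 9.15% for Tbx5, Hey2, Irx4 and Nr2f2. Several of these libraries held 5 reads or fewer of Myl7, Sln or Bmp10.

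In the comparison of the genotypes, none of the 8 members tested passed. The test was limma on log2(FPKM + 0.1) across 18035 genes, and genes were called at an adjusted p under 0.05 when their log2 fold change also exceeded 0.75 in either direction. It called 83 genes, or 0.46% of all genes tested, 57 of them higher (0.316%) and 26 lower (0.144%) in Mc4r KO mice. None of the 8 members had an unadjusted p under 0.05 in limma, which 3761 of the 18035 genes had, and limma voom on the recovered reads called 0 of the 8. The groups overlapped for all 9 members, while they did not overlap for 26.4% of the genes tested. With 0.46% of all genes called, 0 calls among 8 genes is no result about the members. With so few genes, the overlap in all 9 is not read as a result either. With the Myl7 level as a covariate, an alternative chosen after seeing the data, 0.172% of all genes were called and Tbx5, Nr2f2, Irx4 and Hey2 were not among them.

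Myl7 averaged an FPKM of 112 ± 170 (SD, n = 3) in WT mice and 13.3 ± 22.1 (SD, n = 3) in Mc4r KO mice, with SDs larger than the means. Its log2 fold change of Mc4r KO over WT was -2.51 (SE 2.60, 95% interval -8.62 to 3.61, limma adjusted p = 0.617). Without WT replicate 3 this value was -0.30 (limma adjusted p = 0.952), and without WT replicate 1 it was -5.21 (limma adjusted p = 0.329). The size of the Myl7 difference therefore depended on single mice.

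Myl4 averaged 21.3 ± 31.2 FPKM in WT and 2.77 ± 4.26 FPKM in Mc4r KO mice (SD, n = 3), with a log2 fold change of -2.12 (SE 1.97, limma adjusted p = 0.572), and of -0.32 without WT replicate 3. For Sln the means were 25.7 ± 37.5 and 3.00 ± 5.19 FPKM, and the log2 fold change was -3.11 (SE 2.63, limma adjusted p = 0.544), or -1.03 without WT replicate 3. Because of its zeros, the Sln fold change also moved with the constant added before the logarithm, to -2.01 with 1 and -4.21 with 0.01. Bmp10 averaged 16.8 ± 29.1 FPKM in WT and 0.0764 ± 0.120 FPKM in Mc4r KO mice, with a log2 fold change of -2.63 (SE 2.19, limma adjusted p = 0.537). Bmp10 passed the filter on low values only through WT replicate 3 and fell under it when that library was left out, so its fold change and p are no support for or against a difference. The Bmp10 value also moved, to -1.82 with a constant of 1 and to -3.98 with limma voom.

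**Figure D3:**
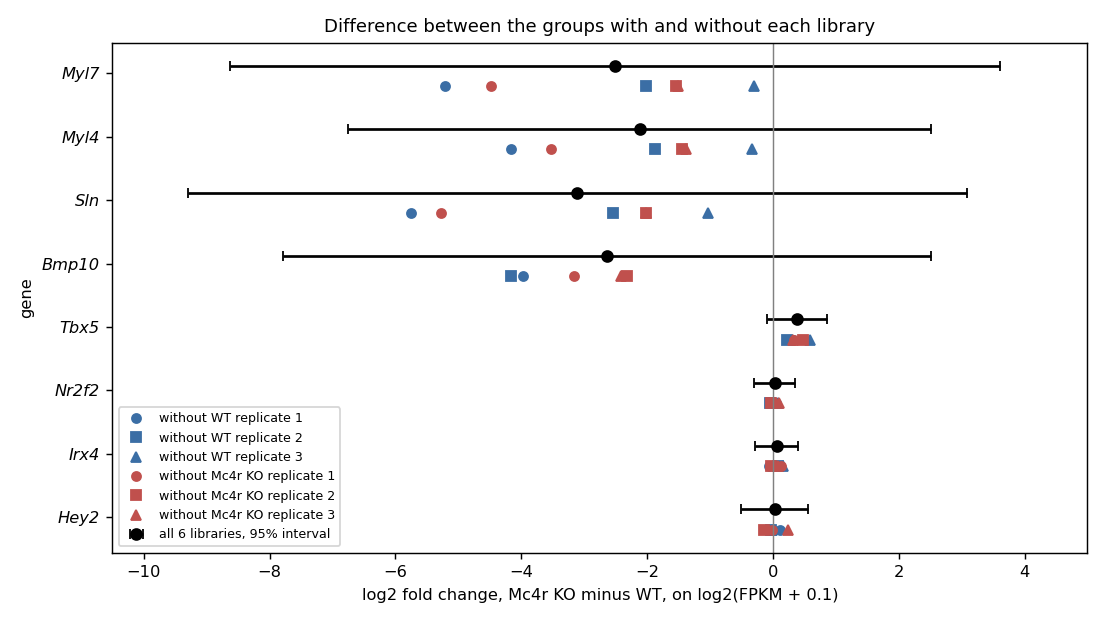
Log2 fold change of Mc4r KO over WT for the 8 members tested, on log2(FPKM + 0.1). Black points with bars are the values over all 6 libraries with 95% intervals, and coloured symbols are the values with 1 library left out (no value for Bmp10 without WT replicate 3). The intervals of Myl7, Myl4, Sln and Bmp10 span more than 9 log2 units and include 0, and those of Nr2f2, Irx4 and Hey2 lie within 0.56 of 0.

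Tbx5 averaged 4.58 ± 1.32 FPKM in WT and 5.87 ± 0.717 FPKM in Mc4r KO mice, a log2 fold change of 0.38 (SE 0.20, 95% interval -0.10 to 0.86, limma adjusted p = 0.339). Without WT replicate 3, the log2 fold change of Tbx5 was 0.60 (SE 0.14, limma adjusted p = 0.0483). That value stayed under the required fold change, in a fit that called 4.04% of all genes, and over the 17 alternative settings of the fit the adjusted p of Tbx5 ran from 0.0483 to 0.625. When libraries were instead scaled to the FPKM of nuclear genes, the median over all genes moved from -0.011 to -0.19 log2 units, and the fit gave 0.19 for Tbx5. Mitochondrially encoded genes made up 47.1% to 59.3% of the summed FPKM in WT libraries and 43.0% to 46.6% in Mc4r KO libraries.

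Nr2f2 had means of 1.81 ± 0.180 and 1.85 ± 0.181 FPKM in WT and Mc4r KO mice and a log2 fold change of 0.026 (95% interval -0.31 to 0.36, limma adjusted p = 0.939). For Irx4 they were 10.3 ± 1.58 and 10.7 ± 1.35 FPKM, with a log2 fold change of 0.059 (95% interval -0.28 to 0.40, limma adjusted p = 0.851). Hey2 had 1.02 ± 0.130 and 1.07 ± 0.289 FPKM and a log2 fold change of 0.029 (95% interval -0.50 to 0.56, limma adjusted p = 0.961). No direction is given for these 3 genes, since the sign turned under some settings. The intervals leave room for differences of up to 0.36 to 0.56 log2 units.

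The ratio of Myl7 to Myl2, the ventricular regulatory light chain, compares the chambers within a library and needs no scaling between libraries. Myl2 had an FPKM of 2003, 2065 and 2153 in WT mice and 2224, 2196 and 2400 in Mc4r KO mice (log2 fold change 0.13, limma adjusted p = 0.600), so it varied little. Myl7 amounted to 0.0120%, 1.36% and 14.3% of Myl2 in WT mice and to 1.74%, 0.0254% and 0.0220% in Mc4r KO mice. On the log2 scale the ratio averaged -7.18 ± 4.93 in WT and -9.81 ± 3.44 in Mc4r KO mice (SD, n = 3), a difference of -2.64 that was smaller than either SD. It was -0.46 without WT replicate 3 and -5.31 without WT replicate 1. The essential light chains gave the same order, with Myl4 at 2.88% of Myl3 in WT replicate 3, at 0.273% in WT replicate 2, at 0.322% in Mc4r KO replicate 1 and at 0.00816% to 0.0134% in the others. As for Myl4, the deposited lengths of Myl2 (1950 bases) and Myl3 (2044 bases) exceed their longest coding transcripts (889 and 937 bases). Myl7 has 1 transcript, of 590 bases. These percentages, like the ratio of Myl4 to Myl7, therefore compare libraries and are not relative transcript numbers.

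Other genes of atrial muscle were examined as a list of 16, of which 15 were tested. None passed, 13 of the 15 had a negative and 2 a positive log2 fold change, and their median was -0.29, against -0.011 over all genes tested. Without WT replicate 3 the median was -0.086, with 8 negative and 7 positive values. Of the 16 genes, 13 were highest in WT replicate 3, compared with 16.1% of all genes tested, and 6 had WT replicate 3, WT replicate 2 and Mc4r KO replicate 1 as their 3 highest libraries, compared with 3.61%. Among the 7 atrial members these counts were 5 and 3. The summed FPKM of the 16 genes was 133, 173 and 541 in WT mice and 207, 114 and 165 in Mc4r KO mice.

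Nppa, which encodes atrial natriuretic peptide and is also induced in stressed ventricles, had the highest mean in this list. Its FPKM was 28.2, 52.2 and 314 in WT mice and 80.9, 5.40 and 42.9 in Mc4r KO mice (log2 fold change -1.53, SE 1.17, limma adjusted p = 0.505). That value was -0.52 without WT replicate 3, -0.39 without Mc4r KO replicate 2 and -2.33 without Mc4r KO replicate 1. The 3 libraries with the highest Myl7 were also the 3 highest in Nppa, but the others were not near 0, at 1.72% to 13.7% of WT replicate 3. Of the exonic sequence of Nppa, 61.5% is overlapped by a gene on the opposite strand.

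Pam, an enzyme that amidates peptides and is abundant in atrial granules, ranged from 45.8 to 66.3 FPKM, and Kcnj5, a subunit of the acetylcholine-gated potassium channel, from 15.4 to 19.9 FPKM. Both were highest in WT replicate 3, by far less than Myl7. Sbk3, a kinase gene chosen after its values were seen, had 3.57, 4.16 and 13.4 FPKM in WT and 1.35, 0.144 and 2.81 FPKM in Mc4r KO mice, without overlap and with Mc4r KO replicate 1 not raised (log2 fold change -2.56, SE 0.91, limma adjusted p = 0.183). Mybphl, a myosin-binding protein of the atria that was chosen after its values were seen, had 5, 54 and 509 reads in WT mice and 82, 1 and 0 reads in Mc4r KO mice. At 12.6% (9.32% to 16.7%) of WT replicate 3 in WT replicate 2 and 17.7% (13.8% to 22.4%) in Mc4r KO replicate 1, it stood close to the proportions of Myl7, Myl4 and Sln.

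**Figure D4:**
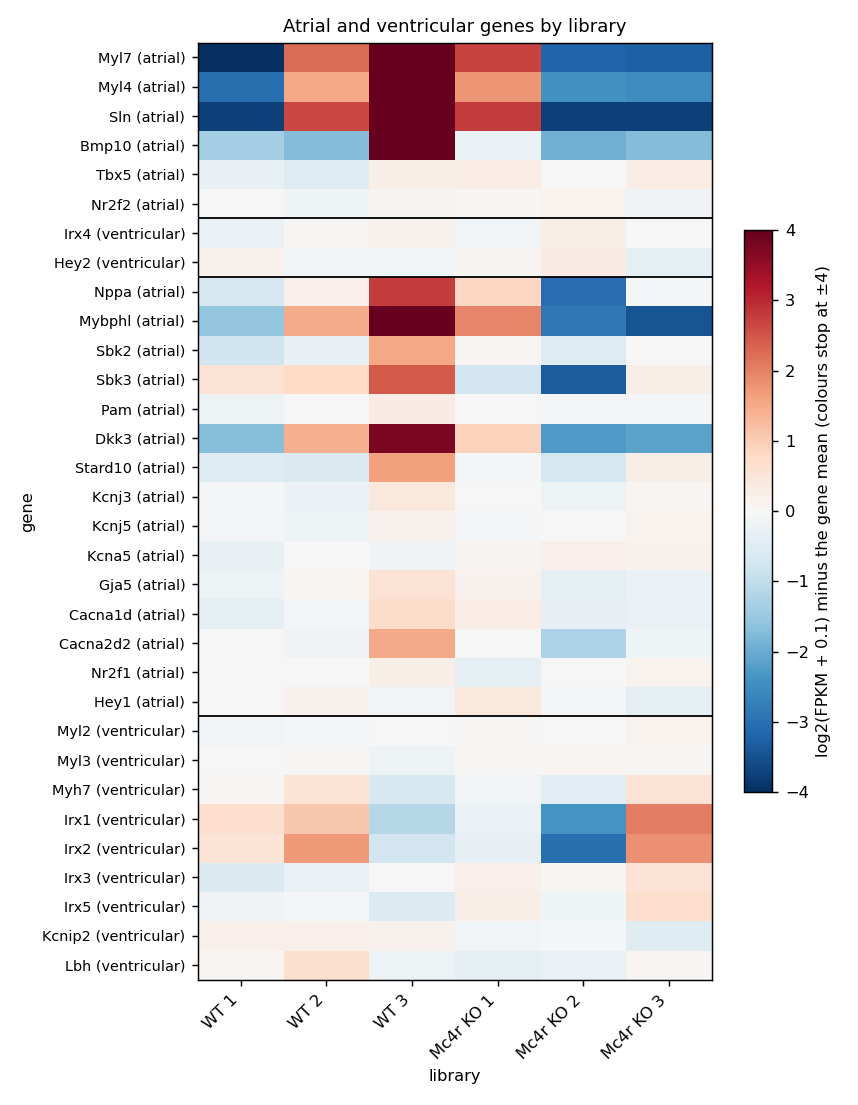
Members and the other atrial and ventricular genes whose mean FPKM reached 0.1 (rows) by library (columns), coloured by log2(FPKM + 0.1) minus the mean of the gene over the 6 libraries. Red is above and blue below the mean, with colours ending at 4 log2 units. WT replicate 3 is red in most atrial rows and pale or blue in most ventricular rows.

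The ventricular side was examined with 10 further genes, 9 of them tested. None passed, 5 had a positive and 4 a negative log2 fold change, and the median was 0.019, or -0.30 without WT replicate 3. The summed FPKM was 4500, 4798 and 4343 in WT mice and 4806, 4840 and 5021 in Mc4r KO mice. None of the 10 genes was highest in WT replicate 3, compared with 16.1% of all genes tested, so this count says little. Myl3, the ventricular essential light chain, had 2249, 2388 and 1983 FPKM in WT and 2387, 2444 and 2364 FPKM in Mc4r KO mice. WT replicate 3 was the lowest library in Myl3 and in this sum. Lbh, a transcriptional cofactor, ranged from 130 to 262 FPKM. Irx1 and Irx2, relatives of Irx4 named here after their values were seen, ranged from 0.176 to 5.97 and from 0 to 2.79 FPKM with the lowest library Mc4r KO replicate 2 and the highest Mc4r KO replicate 3, whereas Irx4 varied by a factor of 1.42.

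Of 9 genes of the sinus node, the pacemaker in the right atrial wall, 7 were tested and none passed. Their summed FPKM was 17.3 in WT replicate 3 and 20.6 to 23.4 in the others. Without Smoc2, the most abundant of them, it was 6.89, 8.02 and 7.50 in WT mice and 10.1, 9.64 and 12.0 in Mc4r KO mice, so WT replicate 3 lay between the other WT libraries. In 1 of the 9 genes, Shox2, the 3 highest libraries were those with the highest Myl7, at 0.357, 0.355 and 0.272 FPKM in WT replicate 2, WT replicate 3 and Mc4r KO replicate 1. Mc4r KO replicate 3 followed at 0.245 FPKM, on 13 reads against 14 in Mc4r KO replicate 1, so this order of Shox2 rests on few reads. Smoc2, a matrix protein, had 13.7, 15.4 and 9.79 FPKM in WT and 12.8, 11.4 and 9.95 FPKM in Mc4r KO mice. Tbx3, a repressor of the conduction system, had 1.91, 2.99 and 2.26 FPKM in WT and 3.41, 3.09 and 2.63 FPKM in Mc4r KO mice. Hcn4, the pacemaker channel, had 1.53, 1.58 and 1.63 FPKM in WT and 2.92, 2.71 and 4.86 FPKM in Mc4r KO mice, without overlap (log2 fold change 1.05, SE 0.22, limma adjusted p = 0.0796). It missed the threshold in the main test and passed it with limma voom on the recovered reads (adjusted p = 0.0262, 1.76% of genes called). Cacna1g, a calcium channel gene, also passed with limma voom (log2 fold change 0.79, adjusted p = 0.0414) and without WT replicate 3 (0.96, limma adjusted p = 0.0298), and Tbx18 passed without WT replicate 3 (-1.03, limma adjusted p = 0.0291). Shox2, Cacna1g and Tbx18 are named after their values were seen, as is Isl1, a defining gene of the node, which had 1 read in WT replicate 3 and 0 elsewhere, under the floor of 3 reads.

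Genes of all cardiomyocytes, whether atrial or ventricular, summed to an FPKM of 10514, 10787 and 10082 in WT mice and 12702, 14282 and 13345 in Mc4r KO mice, and 0 of 10 passed. Actc1, cardiac actin, had 5495, 5470 and 4568 FPKM in WT and 7123, 8307 and 7188 FPKM in Mc4r KO mice (log2 fold change 0.54, limma adjusted p = 0.180). Myh6, the alpha myosin heavy chain, ranged from 2231 to 3082 FPKM and Tnni3, cardiac troponin I, from 1594 to 1718 FPKM. The cardiomyocyte genes did not follow the order of Myl7.

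Markers of other tissues around the atria were compared beside these values. The 6 genes of mesothelium, the outer lining of the heart, summed to an FPKM of 30.3 in WT replicate 3 and of 5.32 to 8.42 in the other libraries, and 6 of 6 were highest in WT replicate 3, though WT replicate 2 and Mc4r KO replicate 1 were not raised (5.32 and 5.79). Haemoglobin genes and Alas2, which mark red cells, summed to 4497, 859 and 6344 in WT and 1651, 663 and 620 in Mc4r KO mice, again highest in WT replicate 3. Their part in the differences was not tested. Lung markers summed to at most 0.106 with Sftpa1, Nkx2-1 and Scgb1a1 at 0, skeletal muscle markers to 1.04 to 2.29 with Myog and Myh4 at 0, adipocyte markers to 0.0283 to 1.02 with Lep, Retn and Ucp1 at 0, and markers of thymus and lymphoid tissue to 0.0709 to 1.29 with Dntt at 0. Nerve and glia markers summed to 2.02 to 3.47, with Th and Chat at 0. Endothelial genes summed to 146 to 178, fibroblast genes to 136 to 189 and smooth muscle genes to 69.4 to 147. None of these 3 sums was highest in WT replicate 3, but a sum follows its most abundant genes. Highest there were 1 of 6 endothelial, 3 of 6 fibroblast and 1 of 6 smooth muscle genes, compared with 16.1% of all genes tested. The endothelial gene was Npr3, named after its values were seen. It had 3.71, 2.25 and 7.75 FPKM in WT and 3.84, 0.932 and 2.33 FPKM in Mc4r KO mice. The low sums of adipocyte (1.02), thymus and lymphoid (1.29) and nerve and glia (3.47) markers were highest in WT replicate 3.

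Genes whose pattern was most like the atrial members were sought among 11289 genes whose mean FPKM reached 1, by the Pearson correlation of log2(FPKM + 0.1) over the 6 libraries with the mean log2 deviation of Myl7, Myl4, Sln, Bmp10 and Dhrs9. That mean deviation was -2.40, 0.87 and 4.74 in WT mice and 1.40, -2.32 and -2.28 in Mc4r KO mice. The nearest were Reck (r = 0.992), Gja5 (0.987), Dkk3 (0.986), Snord42b (0.985) and Mlana (0.985). Gja5 and Dkk3 also belong to the list of other atrial genes and were already counted there. Each r rests on the same 6 libraries and largely on WT replicate 3, and is a description. Snord42b and Mlana reached a mean FPKM of 1 only through WT replicate 3, so the filter itself favoured their likeness. Gja5, the gap junction protein connexin 40 of atrial muscle, conduction tissue and arterial endothelium, had 1.43, 1.73 and 2.49 FPKM in WT and 1.87, 1.27 and 1.35 FPKM in Mc4r KO mice. Reck, an inhibitor of matrix metalloproteinases, had 2.12, 2.67 and 3.65 FPKM in WT and 2.75, 2.15 and 1.996 FPKM in Mc4r KO mice.

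In both genes the 3 highest libraries were those of Myl7, in the same order, over less than a 2-fold range. Dkk3, a secreted protein of the Dickkopf family, had 0.507, 5.20 and 27.2 FPKM in WT and 3.68, 0.314 and 0.353 FPKM in Mc4r KO mice, and thus had a range nearer to that of Myl4. Relative to WT replicate 3, Dkk3 was at 19.1% (16.7% to 21.9%) in WT replicate 2 and at 13.5% (11.6% to 15.7%) in Mc4r KO replicate 1, so that WT replicate 2 was the higher of the 2 here and the lower in Myl7. Mlana, a melanocyte gene, had 0, 4 and 59 reads in WT mice and 3, 0 and 0 reads in Mc4r KO mice. Snord42b, a small nucleolar RNA, rested on 0 to 5 reads per library.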

How the data were processed

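RNA from the hearts of 6 mice was sequenced with 1 library per mouse. Per the submitters' processing notes and the paper's methods, reads were handled with CASAVA, aligned to mm10 with HISAT2 (2.0.5) and counted with featureCounts. The authors deposited FPKM per gene and library. Which annotation was used, and whether strand was, is not given in the sources used here. FPKM times gene length gave whole reads for 100% of the values (tolerance 0.05 reads), and these reads served for intervals, a floor of 3 reads and limma voom. All value columns were matched to a library, and 99.9% of the identifiers were found in GENCODE M21.

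Since the unit is FPKM and not counts, the test was limma (3.58.1, R 4.3.3) with trend on log2(FPKM + 0.1), Mc4r KO against WT, all 6 libraries, no covariate, two-sided, for 18035 genes whose mean FPKM reached 0.1, after median-of-ratios scaling (factor 1 in each library), with Benjamini-Hochberg adjustment. It was tested on simulated data. Separate mice are the replicates. An exact permutation test of 3 against 3 cannot go below 0.1 and was not used.

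Members and gene lists were chosen with earlier results of these data known. Genes named are the 9 members, Mc4r, the 3 of the other atrial, ventricular, sinus node and pan-cardiomyocyte lists with the highest mean FPKM (none passed the test), the 5 genes most like the atrial members, and those said to be chosen after their values were seen. Genes named as marker lists or as markers at 0 give only list membership. Some results for single genes are left out of the text.

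Alternatives were pseudocounts of 1 and 0.01, no filter, a mean FPKM of at least 1 and no scaling. No scaling equalled the main fit, since the median-of-ratios factors were 1. The rest were scaling outside the mitochondrial chromosome, quantile normalization, limma without trend, limma voom on recovered reads, a replicate block and each library left out. Myl7 as a covariate was a further alternative, chosen after seeing the data.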

Additional observations from a re-analysis of the deposited data

How the results depend on the processing

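None of the 8 members tested, and none of the other atrial or ventricular genes, was called under any setting, with adjusted p of the members from 0.0483 to 0.994. Myl7, Myl4 and Sln kept a negative log2 fold change, the Myl7 covariate left aside, and Tbx5 kept a positive one. Bmp10 was negative wherever it was tested, but it fell under the filter without WT replicate 3. Its constant sign is therefore no sign of stability. In the remaining libraries it had 0.0474 and 0.0155 FPKM in WT mice and 0.215, 0 and 0.0139 FPKM in Mc4r KO mice. The Myl7 to Myl2 log2 difference of -2.64 ran from -5.31 (without WT replicate 1) to -0.46 (without WT replicate 3). The sign turned for Nr2f2, Irx4 and Hey2 with scaling outside the mitochondrial chromosome (-0.16, -0.13 and -0.15), for Irx4 with quantile normalization (-0.023) and for Hey2 with Myl7 as a covariate (-0.0041). With 1 library left out, Nr2f2 ran from -0.052 to 0.0997, with a negative sign without WT replicate 2 or Mc4r KO replicate 2, and Irx4 from -0.068 to 0.15, negative without WT replicate 1 or Mc4r KO replicate 2. Hey2 ran from -0.13 to 0.23, negative without WT replicates 2 or 3 or Mc4r KO replicates 1 or 2. The cause was not tested.

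The 83 genes called became 44 with a pseudocount of 1, 22 without a filter, 147 with a mean FPKM of at least 1, 49 with quantile normalization, 21 without trend, 317 with limma voom and 31 with Myl7 as a covariate (24 of them among the 83). Scaling outside the mitochondrial chromosome gave 41 calls, 39.0% of them higher in Mc4r KO mice against 68.7%. Leaving out 1 library gave 7 to 726 calls, the most without WT replicate 3, where 81 of the 83 remained. The cause was not tested. The replicate block left 11 calls. Same-numbered libraries had correlations of -0.141, 0.00735 and -0.0818 in their deviations from the group means over 11297 genes. Such values cannot show whether same-numbered mice were paired, and the sources used here name no pairs.

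With 3 mice a group and wide ranges within WT mice, the intervals of Myl7, Myl4, Sln and Bmp10 span differences in both directions. Levels under about 0.2 FPKM on a gene of 1 kilobase rest on 3 reads or fewer.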

Other observations

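Among 11297 genes whose mean FPKM reached 1, the ratio of WT replicate 3 to the next highest library was computed after the values were seen. Bmp10 was first (234-fold), followed by Hamp (52.3), Mlana (12.4), Myl7 (7.92), Sln (7.65), Myl4 (7.44), BC023105 (7.35), Gm4841 (5.77), Mybphl (5.66) and Dkk3 (5.23). Genes that reached this mean only through WT replicate 3, as Bmp10 did, had to rank high. Mybphl and Dkk3 belong to the list of other atrial genes and were already counted there. Hamp, which encodes the iron hormone hepcidin, had 0, 2 and 172 reads in WT mice and 3, 0 and 0 reads in Mc4r KO mice. It shared with Bmp10 a near absence in WT replicate 2 and Mc4r KO replicate 1, where Myl7 had 238 and 355 reads.

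Sbk2 and Stard10, further atrial genes picked after their values were seen, were highest in WT replicate 3 at 7.44 and 33.1 FPKM and ranged from 1.37 to 2.60 and from 6.53 to 12.6 FPKM in the other 5 libraries.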
